A study of Mus musculus with 42 samples.

Results

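The proteasome genes of mouse CD4+ T cells were followed from the naive state through activation, rest and memory. They were chosen by name, as the genes with a reporter assigned to 1 gene only and a symbol starting with Psma, Psmb, Psmc, Psmd, Psme, Psmf or Psmg. The rule found 34 reporters for 30 genes, of 3626 such reporters for 3230 genes on the array, and the brightest reporter stood for each gene. The 30 genes comprised 7 subunits of the core's alpha ring (Psma1 to Psma7), 5 of its beta ring (Psmb1, Psmb2, Psmb3, Psmb5 and Psmb7), the 6 subunits of the ATPase ring (Psmc1 to Psmc6), the base subunit Psmd4, 5 lid subunits (Psmd6, Psmd7, Psmd8, Psmd11 and Psmd13), the base assembly chaperones Psmd5 and Psmd10, the core assembly chaperone Psmg1 and the activators Psme1, Psme3 and Psme4. No symbol starting with Psmf was among them, and neither were the inducible beta subunits of the immunoproteasome.

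RNA of 21 samples was hybridised to 42 arrays, an array a and an array b for each sample, with 3 samples in each of 7 groups. All cells descended from naive CD4+ T cells taken from the spleen of mice with 2 transgenes, GFP and the AND T cell receptor. That receptor binds a pigeon cytochrome C peptide on I-Ek, and the naive cells were CD44lo, CD62Lhi, CD45RBhi and CD25-. Effector Th1 and effector Th2 cells had been stimulated in vitro for 4 days with antigen-presenting cells, in Th1 or in Th2 conditions, and rested Th1 and rested Th2 cells had then been kept for another 3 days without those cells. Memory Th1 and memory Th2 cells were rested cells that had been transferred into mice whose thymus had been removed, which had been lethally irradiated and given bone marrow depleted of T cells, and that were flow-sorted 4 to 12 weeks later. All cells carried 1 T cell receptor transgene, all RNA came from cryopreserved cells, and neither the age nor any pooling of the animals is stated in the labels. The source field of the labels names the thymus where the protocol names the spleen, and for memory Th2 the description field has RM-Th2 against M-Th2 in the title, which was followed. The labels do not say whether the 3 samples of a group came from separate animals or cultures, so the tests measure the spread between these samples, which may be technical.

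The proteasome is the protease that degrades proteins tagged with ubiquitin. Its core is a barrel of outer alpha rings, which form the gate, and inner beta rings, which hold the proteolytic sites. The regulatory particle that caps the barrel has a base with a ring of ATPases, which unfold the substrate and thread it into the core, and a lid that removes ubiquitin. Activated T cells grow and divide rapidly, and proteasome inhibitors are known to block their proliferation.

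The promoters of the genes called in at least 2 of the comparisons below are shown first, where an entry was found, with that of Psma1, which was also chosen for description in full, because subunit genes of 1 complex can carry common promoter elements. RefSeq (GRCm38.p6) gave 27 promoter entries for 25 of the 30 genes. Psmb1, Psmb2, Psmb7, Psmc3 and Psmd7 are named only. The 250 bases before the annotated start are printed for Psma1, Psma5, Psmb3, Psmc5, Psmd13 and Psmg1, 5′ to 3′ on the strand of the gene, with the ETS core CGGAAG or CTTCCG and the CCAAT box CCAAT or ATTGG in capitals.
Psma1: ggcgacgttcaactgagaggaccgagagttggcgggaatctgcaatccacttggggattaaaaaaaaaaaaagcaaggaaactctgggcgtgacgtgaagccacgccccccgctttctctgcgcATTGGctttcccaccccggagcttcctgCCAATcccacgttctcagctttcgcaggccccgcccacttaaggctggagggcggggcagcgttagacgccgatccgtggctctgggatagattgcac
Psma5: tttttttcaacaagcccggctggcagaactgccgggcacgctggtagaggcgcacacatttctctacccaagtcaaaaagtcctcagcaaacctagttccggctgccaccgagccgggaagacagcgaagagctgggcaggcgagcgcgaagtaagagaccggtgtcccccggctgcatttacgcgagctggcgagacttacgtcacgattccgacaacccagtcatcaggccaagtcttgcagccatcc
Psmb3: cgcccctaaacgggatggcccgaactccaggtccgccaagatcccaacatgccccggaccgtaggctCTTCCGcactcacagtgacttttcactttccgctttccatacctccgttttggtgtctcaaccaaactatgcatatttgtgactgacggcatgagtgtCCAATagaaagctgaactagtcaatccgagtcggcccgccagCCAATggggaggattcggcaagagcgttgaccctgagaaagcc
Psmc5: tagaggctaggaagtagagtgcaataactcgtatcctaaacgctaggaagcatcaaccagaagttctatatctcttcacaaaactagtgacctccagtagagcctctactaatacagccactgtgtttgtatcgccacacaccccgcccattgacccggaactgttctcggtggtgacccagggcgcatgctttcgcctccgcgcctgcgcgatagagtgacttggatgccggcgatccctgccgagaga
Psmd13: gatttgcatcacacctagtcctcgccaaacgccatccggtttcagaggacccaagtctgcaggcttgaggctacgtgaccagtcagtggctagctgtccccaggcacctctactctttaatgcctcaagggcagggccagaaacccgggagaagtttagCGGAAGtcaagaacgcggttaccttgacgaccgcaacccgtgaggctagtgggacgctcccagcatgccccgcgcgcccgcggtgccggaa
Psmg1: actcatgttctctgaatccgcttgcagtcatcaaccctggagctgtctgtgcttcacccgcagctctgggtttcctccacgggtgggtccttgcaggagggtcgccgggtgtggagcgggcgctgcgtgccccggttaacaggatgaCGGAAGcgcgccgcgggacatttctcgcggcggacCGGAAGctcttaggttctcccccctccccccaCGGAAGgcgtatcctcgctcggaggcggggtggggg

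These windows lie at chr7:114276117-114276366 on the minus strand for Psma1, chr3:108256676-108256925 on the plus strand for Psma5 and chr11:97703184-97703433 on the plus strand for Psmb3. Those of Psmc5 at chr11:106255935-106256184, of Psmd13 at chr7:140882144-140882393 and of Psmg1 at chr16:95990961-95991210 are on the plus, plus and minus strand. Psmg1 carried 3 copies of CGGAAG, with first bases at -103, -68 and -36 from the start, and Psmb3 carried CTTCCG, the same core on the other strand, at -183 beside CCAAT boxes at -85 and -43. Psma1 held 2 CCAAT boxes facing opposite ways at -126 and -98, whereas Psma5 and Psmc5 held neither motif in this window. Over the whole entries of 300 bases, 250 before and 50 after the start and counted on both strands, the ETS core was in 16 of the 27 proteasome promoters (59.3%), in 31.1% of the 3461 promoters of genes on the array and in 16.9% of all 32851 promoters. The CCAAT box was in 40.7% of the proteasome promoters, 37.7% of those of array genes and 37.4% of all. The antioxidant response element TGACNNNGC, the kind of site through which Nrf1 (Nfe2l1) is known to act on proteasome genes, was in 11.1%, 14.1% and 12.4%, in the promoters of Psmb5, Psmc6 and Psme4. The cAMP response element TGACGTCA was in 0 of the 27 and in 2.98% of the promoters of array genes. CCAAT and CGGAAG cannot overlap each other, TGACNNNGC can overlap the other motifs, and a match is a run of letters, not a shown binding site.

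A level is given below as log2(intensity + 1) after quantile normalization of all arrays, averaged over the spots of a reporter and over arrays a and b. A difference between groups is a difference of mean levels on that scale, with its standard error, n = 3 samples per group, and it understates the change of dim genes. A gene is written to have risen or fallen where limma's moderated test, adjusted by the Benjamini-Hochberg method over all 4992 reporters, gave an adjusted p under 0.05. The depth of an array is not counted in reads. Precision is limited by the number of arrays, and the median difference between the 2 spots of a proteasome gene's reporter was 0.22 on the log2 scale, with the highest of 0.59 at Psmb7. Psme4 was the 1 gene with spots at 0.

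The ratio of array a to array b, spot by spot, was the same in samples that the labels call different. It matched to within 0.0001 on the log2 scale, over the 1052 spots above an intensity of 20 on every array, in 13 pairs of samples, which left 10 distinct patterns among 21 samples. Effector Th1 and effector Th2 samples of the same number shared a pattern, as did rested Th1 and rested Th2 samples and memory Th1 and memory Th2 samples of the same number. The naive samples 1 and 3 shared theirs with the memory samples 1 and 3 of both lineages, and naive sample 2 stood alone. Arrays a and b are therefore not independent measurements, and they were averaged. The steps from naive to effector, from effector to rested and from rested to memory each compare different patterns, so that step and pattern cannot be told apart there; the comparisons of memory with naive and of Th1 with Th2 run mostly within a pattern. Samples of the same number deviated together, though only weakly between some groups, with a correlation of 0.076 between effector Th1 and memory Th1 samples 1. A fit with the number as a block is therefore given beside a count that it moves.

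Of the 30 proteasome genes, 11 changed in at least 1 of the 11 planned comparisons and 6 in at least 2 of them. The share of all reporters is given below for each comparison, and it was not counted over the 11 together. Psmb2, Psmb3 and Psmc5 changed in 4 each, Psma5 and Psmg1 in 3 and Psmd13 in 2. Without a block, the rises called on activation were in core subunits and the core assembly chaperone, and the falls at rest in core, ATPase and lid subunits. The rises from rested to memory Th1 cells were in the same 3 kinds of subunit. The calls per part are few, and these parts were not tested against each other. With the replicate block the base chaperone Psmd10 also rose and the ATPase Psmc4 fell in effector Th1 cells. RNA was measured in bulk, so fewer cells of a type and less RNA per cell cannot be told apart. Of the 25 calls, 9 held in every fit without 1 sample and under every other setting tried, 16 were lost in at least 1 and 0 changed direction.

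**Figure D1:**
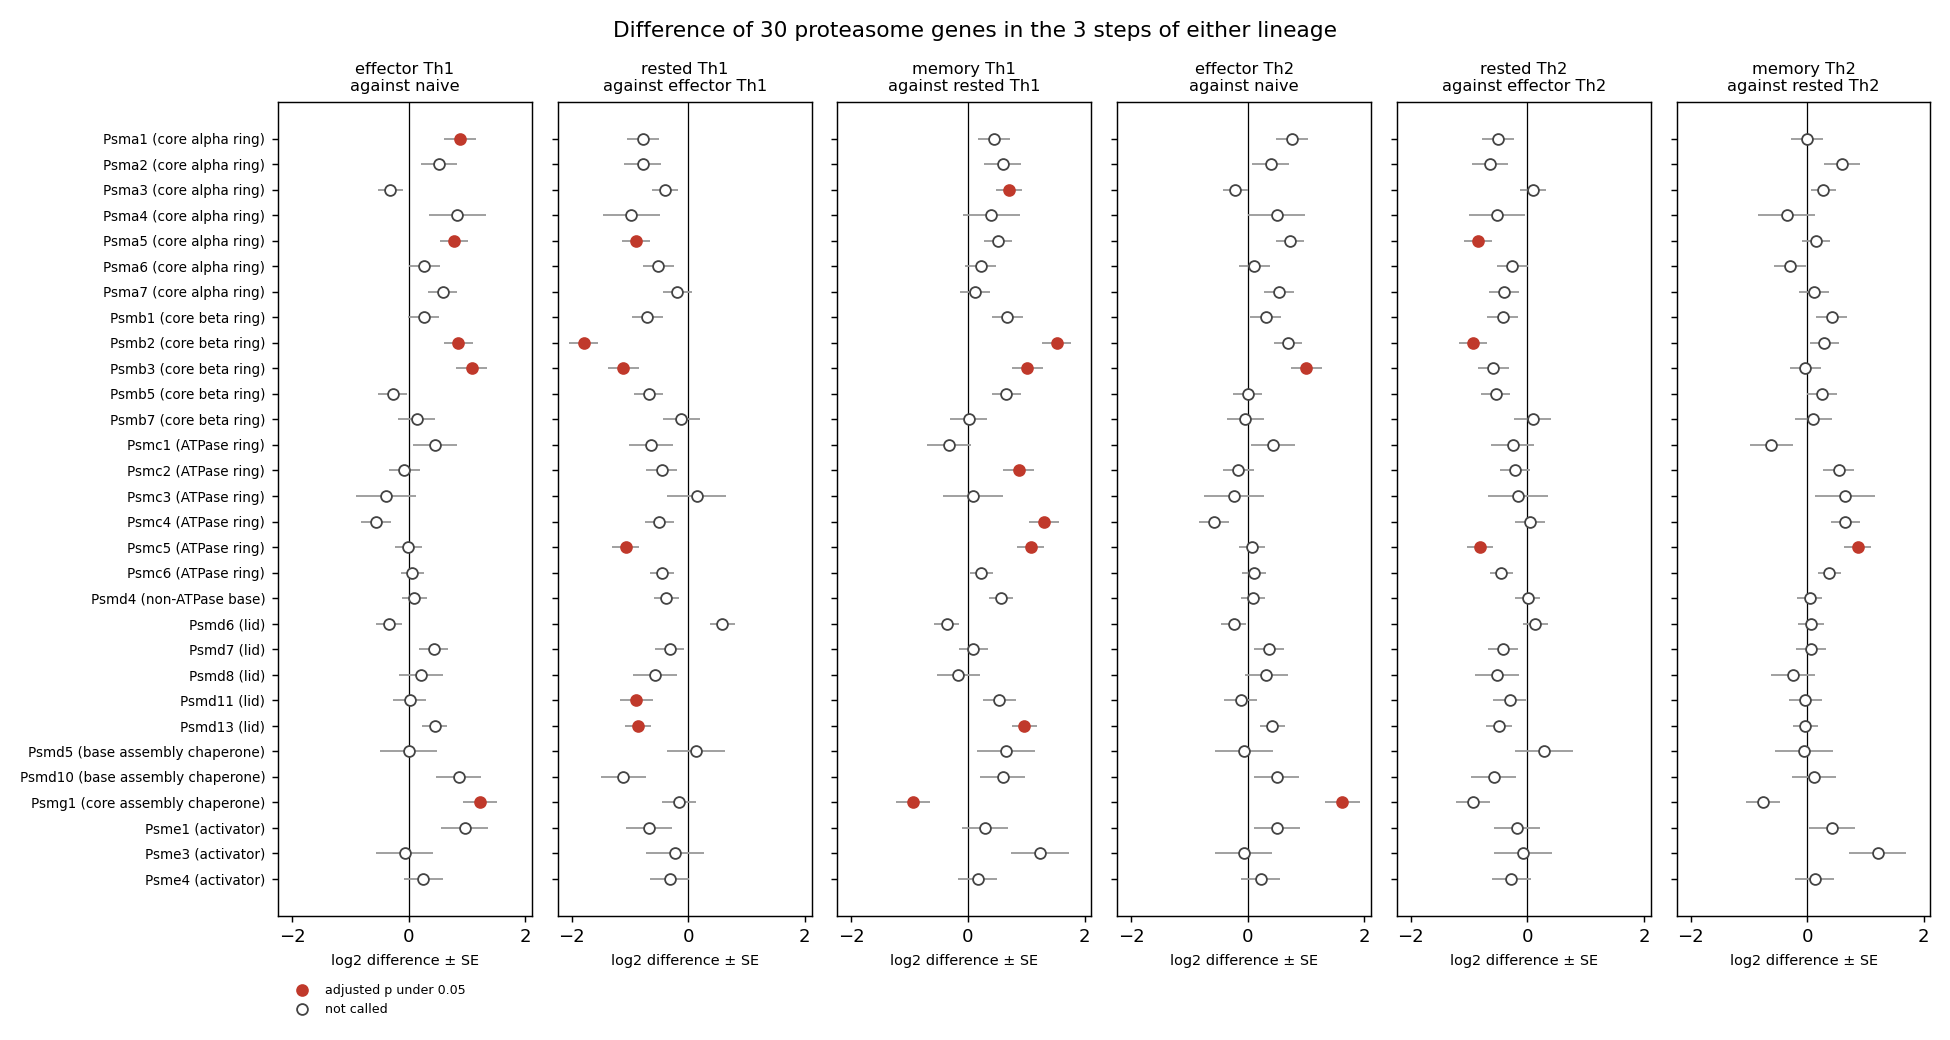
Difference in level (log2 scale, horizontal axis, ± standard error) of each of the 30 proteasome genes (rows, with their part of the complex) in the 3 steps of either lineage, 3 samples per group; filled red points have an adjusted p under 0.05 and open points do not. The filled points lie to the right of 0 in the steps to effector cells, to the left in the steps to rest, and to the right again in memory Th1 cells except for Psmg1.

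Among the alpha subunits, which form the gated outer ring of the core, Psma1 and Psma5 rose in effector Th1 cells. Psma1 (Entrez 26440) had levels of 3.45, 3.36 and 4.11 in naive samples 1, 2 and 3, 4.37, 4.53 and 4.65 in effector Th1, 3.94, 3.21 and 4.10 in rested Th1, and 3.96, 3.97 and 4.65 in memory Th1. In the Th2 lineage its levels were 4.40, 4.32 and 4.48 in effector, 3.85, 3.82 and 4.00 in rested, and 3.63, 3.86 and 4.15 in memory samples. All effector samples lay above all naive samples and above all rested samples, while naive, rested and memory samples overlapped and memory Th1 sample 3 was as high as the effector samples. Psma1 was 0.88 ± 0.27 higher in effector Th1 than in naive cells (1.84-fold, adjusted p = 0.0452), a call lost without 5 of the 6 samples in turn (adjusted p of up to 0.19). The difference of 0.76 ± 0.27 in effector Th2 cells did not pass (adjusted p = 0.0989).

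Psma5 (Entrez 26442) had levels of 3.33, 3.47 and 4.00 in naive samples, 4.43, 4.16 and 4.57 in effector Th1, 3.65, 3.49 and 3.31 in rested Th1, and 3.65, 4.13 and 4.25 in memory Th1 samples. Its Th2 levels were 4.49, 4.03 and 4.45 in effector, 3.43, 3.52 and 3.47 in rested, and 3.39, 3.89 and 3.58 in memory samples. Effector samples of both lineages were again above all naive and all rested samples. The rise in effector Th1 cells was 0.78 ± 0.24 (adjusted p = 0.045), and it was lost with the shared spot patterns as a random block (adjusted p = 0.0745) and without 4 of the 6 samples in turn (up to 0.199). The fall at rest was -0.90 ± 0.24 in Th1 (adjusted p = 0.0134) and -0.85 ± 0.24 in Th2 cells (adjusted p = 0.0345). The call at rest in Th1 cells was lost without effector Th1 sample 3 (adjusted p = 0.0709). The call at rest in Th2 cells was lost without 5 of the 6 samples in turn, with adjusted p of up to 0.152.

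Of the remaining alpha subunits, Psma3 rose by 0.71 ± 0.22 between rested and memory Th1 cells (adjusted p = 0.0308), from a mean level of 7.49 to 8.20. This call held in 2 of the 6 fits without 1 sample, with adjusted p of up to 0.101. Psma2 was measured by 3 reporters. All 3 were higher in effector than in naive cells of either lineage, lower at rest (by -0.78, -0.64 and -0.42 in Th1) and higher in memory cells (by 0.59, 0.84 and 0.50 in Th1), and none of these differences passed. The brightest of them passed at rest in Th1 cells with the replicate block (adjusted p = 0.00225). Psma4, Psma6 and Psma7 passed in none of the comparisons without a block, and Psma4 had the widest spread, with levels of 3.94, 6.31 and 4.58 in memory Th1 and 3.31, 5.56 and 4.04 in memory Th2 samples.

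The beta subunits line the inner chamber, where Psmb5 and Psmb7 carry proteolytic sites and Psmb1, Psmb2 and Psmb3 are structural. Psmb2 (Entrez 26445) had levels of 4.64, 3.92 and 4.58 in naive samples, 5.51, 5.11 and 5.09 in effector Th1, 3.60, 3.58 and 3.15 in rested Th1, and 4.91, 5.23 and 4.76 in memory Th1 samples. Rested Th1 samples were below every other sample of the study, and memory Th1 samples were above all naive samples. In the Th2 lineage it measured 5.01, 5.05 and 5.16 in effector, 4.11, 3.86 and 4.44 in rested, and 4.29, 4.67 and 4.34 in memory samples, the rested and memory groups overlapping.

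Psmb2 fell by 1.79 ± 0.25 on the log2 scale from effector to rested Th1 cells (3.47-fold, adjusted p = 3.4e-05) and was 1.52 ± 0.25 higher in memory than in rested Th1 cells (2.88-fold, adjusted p = 0.000402). These comparisons share the rested Th1 samples. In Th2 cells it fell by 0.93 ± 0.25 at rest (adjusted p = 0.0222), a call lost with the pattern block (adjusted p = 0.103) and without 5 of the 6 samples in turn (up to 0.127), and differed by 0.29 ± 0.25 in memory. Its rise of 0.85 ± 0.25 in effector Th1 cells (adjusted p = 0.0312) was lost with the pattern block (adjusted p = 0.174) and without 4 of the 6 samples in turn, while the Th1 changes at rest and in memory held in every setting. Against naive cells, rested Th1 cells were lower by -0.94 ± 0.25 (adjusted p = 0.0186).

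Psmb3 (Entrez 26446) had levels of 4.57, 4.75 and 5.10 in naive samples, 5.62, 5.52 and 6.53 in effector Th1, 4.81, 4.72 and 4.79 in rested Th1, and 5.75, 6.08 and 5.55 in memory Th1 samples. Its Th2 levels were 5.64, 5.73 and 6.06 in effector, 5.12, 5.12 and 5.44 in rested, and 4.92, 5.38 and 5.28 in memory samples. Effector samples lay above naive samples in both lineages, and memory samples lay above rested samples in Th1 cells only, the lineages' difference in that step being given below. It rose by 1.08 ± 0.26 in effector Th1 (2.12-fold, adjusted p = 0.00975) and by 1.00 ± 0.26 in effector Th2 cells (adjusted p = 0.0181). The Th1 rise was lost without 2 of the 6 samples in turn (adjusted p of up to 0.0864), and the Th2 rise with the pattern block (adjusted p = 0.0585) and without 3 of the 6 (up to 0.104).

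In Th1 cells Psmb3 fell by 1.12 ± 0.26 at rest (adjusted p = 0.00573) and was higher by 1.02 ± 0.26 in memory (adjusted p = 0.0129). The fall was lost without effector Th1 sample 3 (adjusted p = 0.0538), and the memory call held in every setting. Psmb5, the subunit with the chymotrypsin-like site, changed in none of the 3 Th1 steps without a block, but it was lower in rested Th1 than in naive cells (-0.95 ± 0.25, adjusted p = 0.0186), with means of 4.89 and 5.84. Psmb7, with the trypsin-like site, was dim, with group means of 1.85 to 2.05, and neither it nor Psmb1 passed in any comparison without a block.

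**Figure D2:**
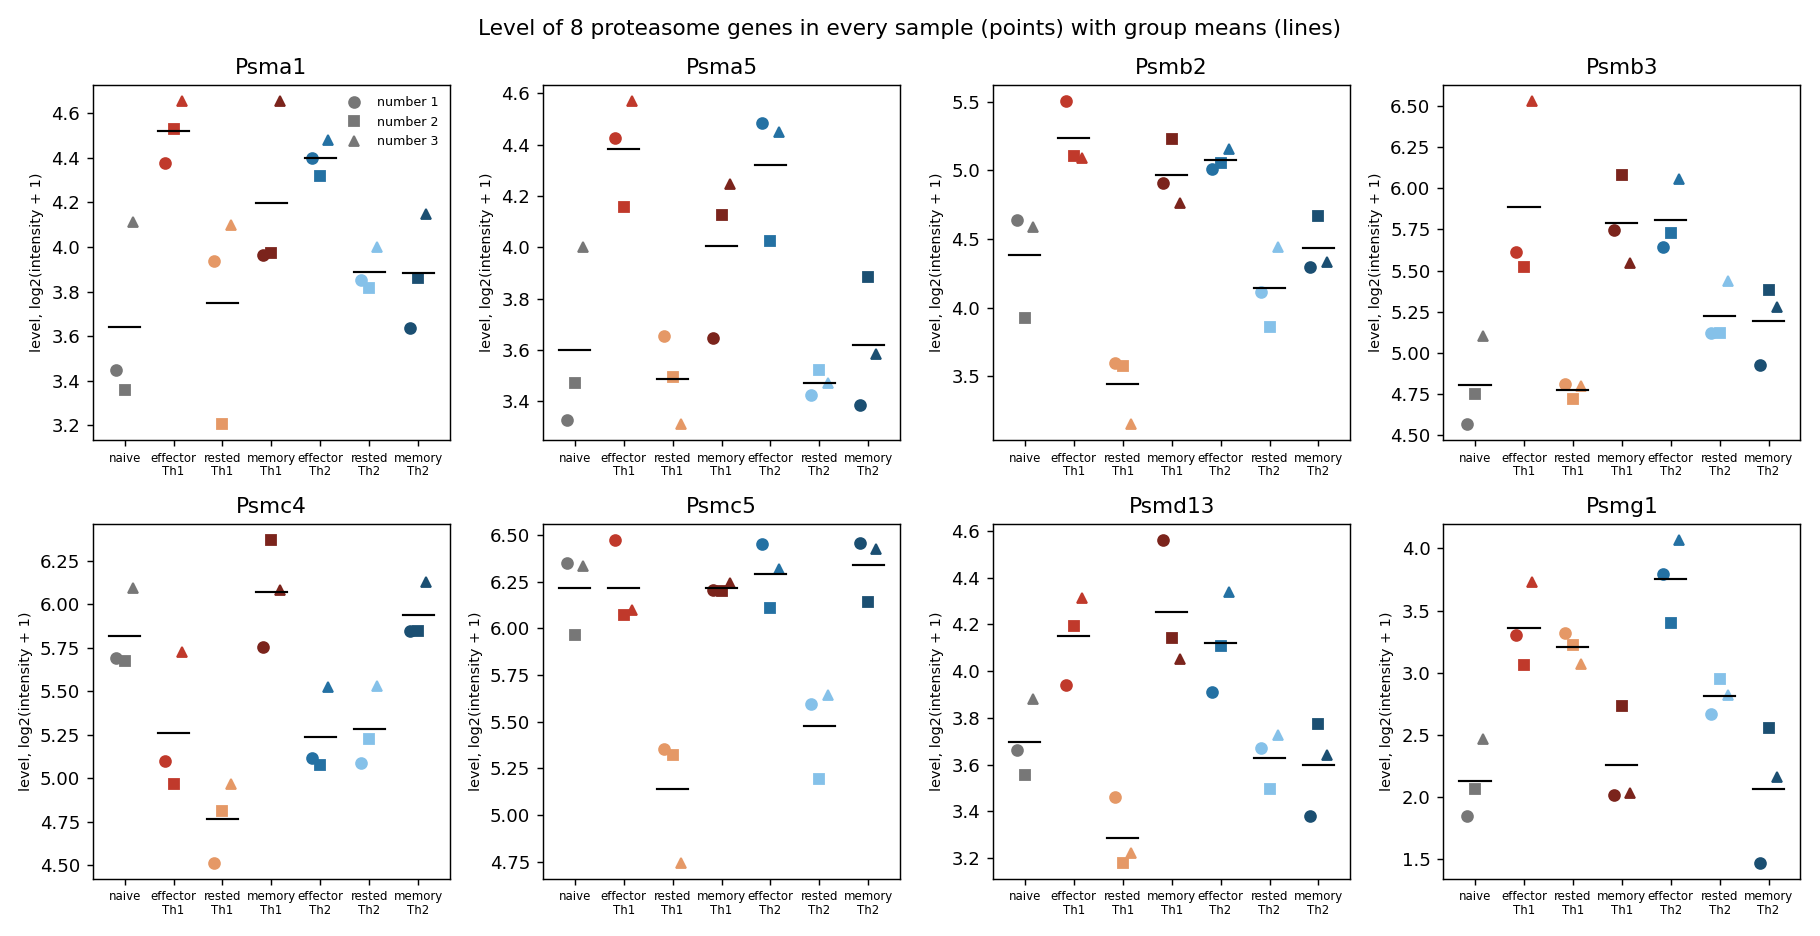
Level of 8 proteasome genes (log2(intensity + 1), vertical axis, scaled per gene) in each of the 21 samples, grouped by cell state; circles, squares and triangles are samples 1, 2 and 3 and lines are group means. Rested Th1 samples lie below all effector Th1 samples for Psma5, Psmb2, Psmb3, Psmc5 and Psmd13, and Psmg1 is low in naive and memory samples.

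Without a block, and beside 5.53% of all reporters in Th1 and 5.31% in Th2, no lid subunit, activator or base assembly chaperone rose in effector cells. Neither did any of the 6 subunits of the ATPase ring, the motor of the regulatory particle. At such shares few calls would be found among so few genes, so their absence does not set these parts apart. With the replicate block the base chaperone Psmd10 rose in effector Th1 cells (adjusted p = 0.0183). Psmc5 (Entrez 19184), a subunit of that ring, had levels of 6.35, 5.97 and 6.33 in naive samples, 6.47, 6.07 and 6.10 in effector Th1, 5.35, 5.32 and 4.75 in rested Th1, and 6.21, 6.20 and 6.24 in memory Th1 samples. Its Th2 levels were 6.45, 6.11 and 6.32 in effector, 5.59, 5.19 and 5.64 in rested, and 6.46, 6.14 and 6.42 in memory samples. The 6 rested samples were the 6 lowest of the study, and the other groups overlapped.

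Psmc5 fell at rest by 1.08 ± 0.23 in Th1 (2.11-fold, adjusted p = 0.00243) and by 0.81 ± 0.23 in Th2 cells (adjusted p = 0.0312). It was higher in memory than in rested cells by 1.08 ± 0.23 in Th1 (adjusted p = 0.00362) and by 0.87 ± 0.23 in Th2 cells (adjusted p = 0.0362), with the same rested samples in both comparisons of a lineage. The Th2 changes were lost with the pattern block (adjusted p = 0.112 at rest and 0.126 in memory) and without most single samples, with adjusted p of up to 0.177. Its memory and effector means were 6.22 and 6.22 in Th1 and 6.34 and 6.29 in Th2 cells.

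Psmc4 and Psmc2, also ATPases of the ring, rose between rested and memory Th1 cells by 1.3 ± 0.25 (adjusted p = 0.00182) and 0.87 ± 0.26 (adjusted p = 0.0287). The Psmc2 call held in 3 of the 6 fits without 1 sample, with adjusted p of up to 0.131. Psmc4 was the 1 subunit that passed as higher in memory Th1 than in effector Th1 cells (0.81 ± 0.25, adjusted p = 0.0383), with group means of 5.82 in naive, 5.26 in effector, 4.76 in rested and 6.07 in memory Th1 cells. It also fell, with the replicate block, in effector cells of both lineages (-0.56, adjusted p = 0.0475 in Th1 and -0.58, adjusted p = 0.0414 in Th2). Psmc1, Psmc3 and Psmc6 passed in none of the comparisons without a block.

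In the regulatory particle outside the ATPase ring, the lid subunit Psmd13 (Entrez 23997) had levels of 3.66, 3.55 and 3.88 in naive samples, 3.94, 4.19 and 4.31 in effector Th1, 3.46, 3.18 and 3.22 in rested Th1, and 4.56, 4.14 and 4.05 in memory Th1 samples. Its Th2 levels were 3.91, 4.11 and 4.34 in effector, 3.67, 3.49 and 3.73 in rested, and 3.38, 3.77 and 3.64 in memory samples. Memory Th1 samples lay above all naive and all memory Th2 samples, and memory Th2 samples overlapped the naive and rested Th2 groups.

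Psmd13 fell by 0.86 ± 0.22 in rested Th1 cells (adjusted p = 0.00843) and was 0.97 ± 0.22 higher in memory than in rested Th1 cells (adjusted p = 0.00544). Psmd11, another lid subunit, fell by 0.89 ± 0.28 in rested Th1 cells (adjusted p = 0.037). This call was lost with the pattern block (adjusted p = 0.0617) and without 4 of the 6 samples in turn. Psmd6, also of the lid, ran the other way, from a mean of 4.89 in effector to 5.47 in rested Th1 cells; the difference of 0.58 ± 0.22 passed with the replicate block only (adjusted p = 0.022). The ubiquitin receptor Psmd4 and the lid subunits Psmd7 and Psmd8 passed in none of the comparisons without a block, and the 3 reporters of Psmd8 disagreed on memory against rested Th1 cells, with differences of -0.16, 0.80 and -0.27.

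Psmg1 (Entrez 56088), a chaperone that helps to assemble the alpha ring, rose on activation and was low again in memory cells. Its levels were 1.85, 2.07 and 2.47 in naive samples, 3.30, 3.06 and 3.73 in effector Th1, 3.32, 3.22 and 3.07 in rested Th1, and 2.02, 2.73 and 2.03 in memory Th1 samples. In the Th2 lineage they were 3.80, 3.40 and 4.07 in effector, 2.67, 2.95 and 2.82 in rested, and 1.47, 2.56 and 2.16 in memory samples. All effector and rested samples were above all naive samples, and memory samples overlapped the naive ones.

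Psmg1 rose by 1.23 ± 0.29 in effector Th1 (2.35-fold, adjusted p = 0.00802) and by 1.63 ± 0.29 in effector Th2 cells (3.09-fold, adjusted p = 0.000707), and the Th2 rise held in every fit. The Th1 rise was lost without naive sample 1 (adjusted p = 0.0521) and without effector Th1 sample 3 (adjusted p = 0.0583). Rested Th1 cells were still 1.07 ± 0.29 above naive cells (adjusted p = 0.0228). Memory cells were lower than effector cells by -1.10 ± 0.29 in Th1 (adjusted p = 0.0154) and by -1.69 ± 0.29 in Th2 (adjusted p = 0.000479), and lower than rested cells by -0.94 ± 0.29 in Th1 (adjusted p = 0.0317). The call against rested Th1 cells held in 2 of the 6 fits without 1 sample, with adjusted p of up to 0.111. Psmg1 was dim in naive (mean 2.13), memory Th1 (2.26) and memory Th2 cells (2.07), below the median reporter level of 3.13. Fold changes against these groups are therefore understated. The base chaperones Psmd5 and Psmd10 passed in none of the comparisons without a block; Psmd10, known as gankyrin, had means of 3.75 in naive, 4.60 in effector Th1, 3.49 in rested Th1 and 4.09 in memory Th1 cells.

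The activators bind the ends of the core in place of the regulatory particle, and none of the 3 passed without a block. Psme1, the alpha subunit of the PA28 activator that interferon-gamma is known to induce, ranged from a mean of 5.57 in naive to 6.53 in effector Th1 cells (0.96 higher, with an SD of 0.39 and 0.48 in the 2 groups). Psme3, which forms the nuclear PA28 gamma ring, was highest in the memory groups, with levels of 2.40, 2.55 and 4.13 in memory Th1 and 2.25, 2.90 and 4.27 in memory Th2 samples. Sample 3 was the high one in both lineages. Psme4, or PA200, was at group means of 1.38 to 1.69.

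**Figure D3:**
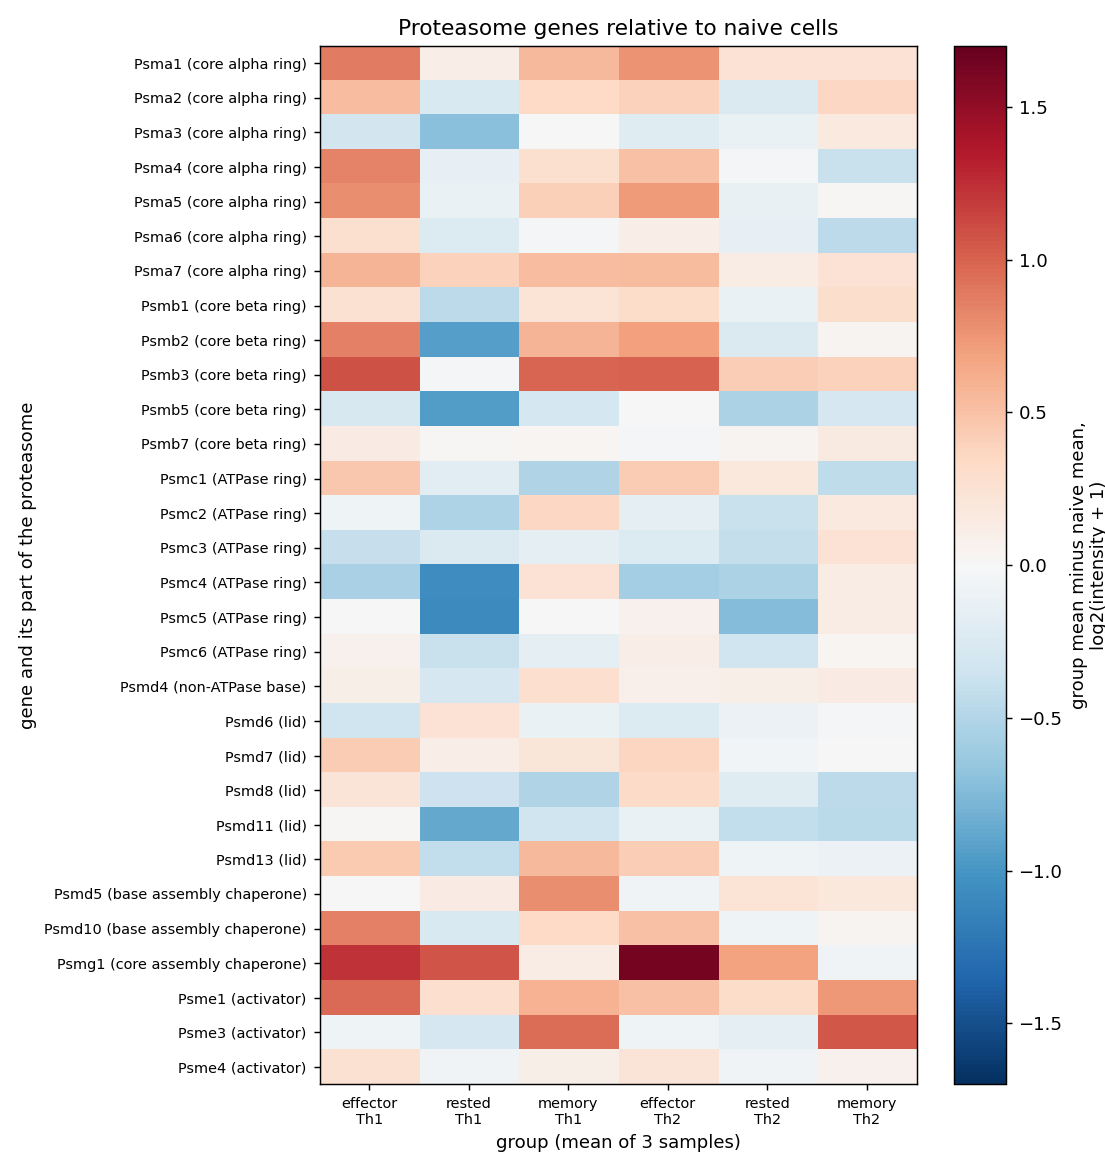
Mean level of each proteasome gene (rows) in the 6 activated, rested and memory groups (columns) minus its mean in naive cells, on the log2(intensity + 1) scale, red for higher and blue for lower. Rested Th1 cells show the most blue, deepest for Psmc5 at -1.08 and Psmc4 at -1.05, and the core alpha genes are mostly red in the effector columns.

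Activation was the first comparison. In effector Th1 against naive cells 5 of the 30 genes rose (Psma1, Psma5, Psmb2, Psmb3 and Psmg1) and 0 fell, beside 5.53% of all reporters that rose and 4.35% that fell. The median difference was 0.26 over the 30 genes and -0.05 over all reporters, and 21 of the 30 were above 0. Among the 1772 reporters with a mean level of at least 3.82, the 25th percentile of the 30 genes, 9.88% rose. It was 0.58 over the 7 alpha subunits, 0.26 over the 5 beta subunits and -0.04 over the 6 ATPases. The number called was 0 without effector Th1 sample 3, 1 without naive sample 1, 2 without naive sample 2 or effector Th1 sample 1, and 3 without effector Th1 sample 2. With the replicate block 7 rose and 1 fell (background 8.63% and 8.11%), Psma2 and Psmd10 joining the rises and Psmc4 the falls, and with the pattern block 3 rose (background 5.19%).

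In effector Th2 against naive cells 2 genes rose (Psmb3 and Psmg1) and 0 fell, beside 5.31% and 3.83% of all reporters. The median was 0.26 against -0.06, and again 21 of the 30 genes were above 0; the naive samples are the same in both comparisons. Of the 1772 brighter reporters 9.88% rose here too. With the pattern block 1 gene, Psmg1, rose (background 5.17%). The replicate block gave 4 rises and 1 fall (background 8.17% and 7.07%), with Psma1 and Psma5 added to the rises and Psmc4 the gene that fell. The count was 1 without naive sample 1 or 2 or without effector Th2 sample 3, and 4 without naive sample 3.

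Under median centring in place of quantile normalization the median of all reporters lay more than 0.1 from 0 in 4 comparisons, at -0.13 in effector Th1 against naive, 0.11 in memory against rested Th1, -0.11 in rested Th1 against naive and 0.11 in memory against effector Th1. The medians of the proteasome genes there were 0.37, 0.68, -0.28 and -0.19, each with the sign it had under quantile normalization. The comparison in which centring moved the median of all reporters by more than 0.1 was memory Th1 against memory Th2, from 0.05 to -0.06, where that of the proteasome genes was 0.13 under quantile normalization and 0.25 under centring.

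Rest was the second comparison. From effector to rested Th1 cells 6 genes fell (Psma5, Psmb2, Psmb3, Psmc5, Psmd11 and Psmd13) and 0 rose, beside 8.61% and 7.61% of all reporters. The median was -0.54 over the 30 genes and -0.01 over all reporters, and 27 of 30 were below 0. Of the 1772 brighter reporters 16.5% fell. The replicate block called 12 lower and Psmd6 higher (background 13.9% and 13.4%). The count ran from 3 without effector Th1 sample 3 to 10 without rested Th1 sample 3.

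From effector to rested Th2 cells 3 genes fell (Psma5, Psmb2 and Psmc5) and 0 rose, beside 4.13% and 3.45% of all reporters. The median was -0.41 over the 30 genes and 0.00 over all reporters, and 24 were below 0; of the brighter reporters 7.68% fell. Under the replicate block 5 fell, Psma2 and Psmg1 in addition (background 7.41% and 8.41%). The count dropped to 0 without effector Th2 sample 1 or 3 or rested Th2 sample 1 or 2, and to 1 with the pattern block (background 3.73%). Whether the rest step differed between the lineages was tested directly: 0 of the 30 genes passed (background 0.1%) and 1 did at an unadjusted p under 0.05, as did 3.49% of all reporters: Psmb2, with a difference of -0.86 ± 0.35.

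Memory cells were compared with the rested cells that had been transferred. In Th1 cells 7 genes rose (Psma3, Psmb2, Psmb3, Psmc2, Psmc4, Psmc5 and Psmd13) and Psmg1 fell, beside 9.42% and 8.35% of all reporters. The median was 0.53 over the 30 genes and 0.09 over all reporters, with 26 genes above 0, and among the 1772 brighter reporters 283 (15.97%) rose. All 8 calls held with the pattern block (background 8.45% risen and 7.37% fallen). Under the replicate block 12 rose and 1 fell (background 17% and 15.2%), and the count was 5 without rested Th1 sample 1 or 2 or memory Th1 sample 3 and at most 10.

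In Th2 cells Psmc5 alone rose from rested to memory and 0 fell, beside 2.28% and 1.62% of all reporters, with a median of 0.12 against 0.02; of the brighter reporters 3.44% rose. With the replicate block 4 rose, Psma2, Psmc4, Psmc5 and Psme3 (background 7.21% and 7.19%), and the Psmc5 call was lost without 5 of the 6 samples in turn and with the pattern block (background 2.22%). The test of the difference between the memory steps called 0 of the 30 genes (background 0.0601%), with 3 at an unadjusted p under 0.05, beside 6.87% of all reporters: Psmb2 (1.23 ± 0.35, adjusted p = 0.233), Psmb3 (1.05 ± 0.37, adjusted p = 0.457) and Psmd13 (1.00 ± 0.31, adjusted p = 0.34).

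With the pattern block, which uses that samples of the same number share a pattern across lineages, the rest interaction called 3 genes (Psma3, Psmb2 and Psmg1, background 7.97%) and the memory interaction called 6 (Psma3, Psmb2, Psmb3, Psmc4, Psmd4 and Psmd13, background 16.5%), all 6 with the larger rise in Th1 cells. The estimated correlation within patterns was 0.784.

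**Figure D4:**
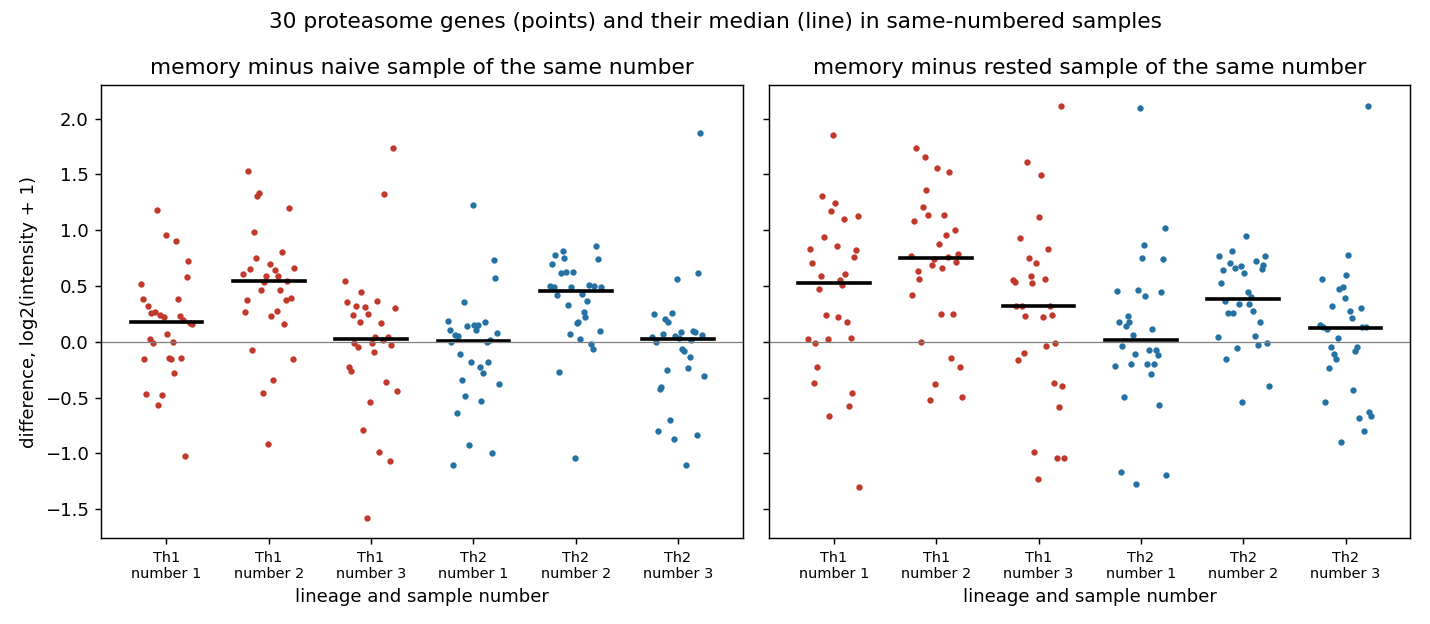
Difference in level (log2 scale, vertical axis) of the 30 proteasome genes (points) and their median (line) between memory and naive samples of the same number (left) and memory and rested samples of the same number (right), by lineage and number. The medians against naive are highest for number 2, at 0.54 in Th1 and 0.46 in Th2, and those against rested are higher in Th1 (0.53, 0.75 and 0.32) than in Th2 (0.01, 0.38 and 0.12) for each number.

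Against naive cells, memory cells showed 0 called proteasome genes in either lineage, in Th1 beside 0.781% and in Th2 beside 0.28% of all reporters in either direction. At an unadjusted p under 0.05 the counts were 3 and 1, against 12.6% and 8.83% of reporters. With the replicate block Psmb3 rose in memory Th1 cells (adjusted p = 0.0182, background 2.72% risen and 3.25% fallen), and with the pattern block 9 genes passed in Th1 (background 29.8%) and 7 in Th2 cells (background 23.8%). The median memory minus naive difference of the 30 genes was 0.18, 0.54 and 0.03 for Th1 numbers 1, 2 and 3, and 0.01, 0.46 and 0.02 for Th2, and number 2 is the pair that shares no spot pattern.

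Several genes varied with the sample number in both memory groups alike. Psmc1 measured 2.75, 3.82 and 1.99 in memory Th1 and 2.30, 3.77 and 2.70 in memory Th2 samples, and Psmd8 measured 3.04, 4.53 and 3.24 against 3.07, 4.48 and 3.47. For Psmc3 sample 1 was the high one, with 3.87, 1.84 and 1.73 in Th1 and 4.13, 1.71 and 2.84 in Th2. Number 2 was the highest for Psma4, Psmc1 and Psmd8 in both lineages, whose same-numbered samples share a pattern; the part of the pattern in these levels was not tested.

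Rested Th1 cells were below naive cells in 5 genes (Psma3, Psmb2, Psmb5, Psmc4 and Psmc5) and above them in Psmg1, beside 5.85% fallen and 4.63% risen reporters, and rested Th2 cells differed from naive cells in 0 genes (background 2.96%; 4 at an unadjusted p under 0.05, beside 12.1% of reporters). Memory Th1 against effector Th1 cells called Psmc4 higher and Psmg1 lower, beside 6.91% and 7.19%. Memory Th2 against effector Th2 cells called Psmg1 lower and 0 higher, beside 6.39% and 5.53%. With the replicate block Psmd11 in rested Th1 (adjusted p = 0.0153) and Psmc5 in rested Th2 cells (adjusted p = 0.0242) also passed as lower than in naive cells. Psme3 then passed as higher in memory than in effector Th1 cells (adjusted p = 0.0301). Psma5 passed as lower in memory than in effector Th2 cells (adjusted p = 0.03). The share of all reporters with that block was not counted for these pairs. Between the lineages 0 genes passed in effector (background 0.18%), rested (0.361%) or memory cells (0.2%), or in the mean over the 3 stages (0.321%). At an unadjusted p under 0.05 there were 0, 2, 3 and 1, beside 2.10%, 9.05%, 3.99% and 4.93% of all reporters. Under the pattern block the mean over stages called Psma3 and Psmb5, both lower in Th1 (background 10.3%).

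The mean level of the 30 genes in a sample lay between 4.21 and 4.60 in naive, 4.47 and 4.83 in effector Th1, 4.00 and 4.34 in rested Th1, and 4.42 and 4.69 in memory Th1 samples. It was 4.45 to 4.83 in effector, 4.13 to 4.48 in rested and 4.20 to 4.57 in memory Th2 samples. Sample 3 had the highest mean in each group but memory, where sample 2 was highest. Effector and rested samples did not overlap in Th1 cells and overlapped narrowly in Th2 cells, where the rested sample was below the effector sample of the same number for each of the 3 numbers.

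Marker genes of other cells and of dividing cells moved with these groups. The summed level of 6 measured of 9 listed genes of dividing cells was 20.92 to 21.55 in naive, 30.97 to 33.47 in effector Th1, 30.47 to 33.04 in effector Th2 and 19.66 to 22.72 in rested and memory samples. Top2a, Cdk1 and Ccnb2 rose in effector cells of both lineages, Top2a by 3.21 in Th1, and fell at rest. They were the 3 of the 6 that passed in effector against naive cells. Mki67 had means of 3.5 in naive, 3.7 in effector Th1 and 3.8 in effector Th2 cells. In the same groups Pcna had means of 2.54, 3.59 and 3.32, and Mcm2 of 7.21, 7.17 and 7.15. The summed level of 6 of 14 genes of myeloid and antigen-presenting cells was 22.49 to 24.30 in naive, 15.14 to 16.25 in effector Th1, 19.64 to 21.30 in rested Th1 and 15.10 to 15.89 in memory Th1 samples, with 15.67 to 17.14, 18.69 to 20.15 and 17.75 to 17.88 in the same stages of Th2 cells. Lyz2, a lysozyme of myeloid cells, had a mean of 6.17 in naive and 0.93 in memory Th1 cells, the largest fall among these 6. Lyz2 and Fcer1g were the 2 of the 6 that passed as lower in memory Th1 than in naive cells. The mean of Lgmn was also lower, that of Ctsb was nearly level (5.46 and 5.44), and those of Itgam and Itgax were higher.

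The summed level of 4 of 9 stromal genes was 12.71 to 15.16 in naive, 16.46 to 18.90 in effector Th1, 14.59 to 16.06 in rested Th1 and 10.88 to 13.61 in memory Th1 samples, with 16.11 to 16.93, 14.35 to 16.33 and 11.58 to 15.10 in the same stages of Th2 cells. Fn1 (fibronectin) rose by 2.03 in effector Th1 and fell by 2.93 on the log2 scale at rest, where it was the 1 of the 4 that fell; the means of Sparc (4.87 to 5.39), Thbs1 (3.84 to 4.04) and Dcn (1.53 to 1.68) were higher in rested Th1 cells. Of 5 granulocyte genes 2 were measured, with a summed level of 12.21 to 12.69 in naive and 7.15 to 8.01 in memory Th1 samples. Between these groups the mean of S100a9 went from 5.30 to 0.44 and that of Csf3r from 7.17 to 7.15. No B cell, CD8 T cell or NK cell marker was measured. Of 13 CD4 T cell genes Cd247 (CD3 zeta) was measured, at a dim 0.99 to 2.39, so the labelled cell type could not be checked further. The part of these cells in the proteasome results was not tested.

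Genes that work with the proteasome under other names were taken from lists. Of 18 proteasome-associated genes 6 were measured. Rad23b, which carries ubiquitinated proteins to the proteasome, fell by 1.39 in effector Th1 (adjusted p = 0.00596) and by 1.3 in effector Th2 cells (adjusted p = 0.0107). Txnl1, a thioredoxin-like protein bound to the regulatory particle, rose at rest by 1.58 in Th1 (adjusted p = 0.00346) and 1.22 in Th2 cells (adjusted p = 0.0362). The shuttle protein Ubqln2 rose by 1.43 from rested to memory Th1 cells (adjusted p = 0.00621), and Ecpas, Zfand5 and Ubqln1 changed in none of the 11 comparisons.

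Of 13 listed regulators of proteasome genes 5 were measured (Nfe2l1, Keap1, Mafg, Nfya and Nfyb), and 1 changed in the 11 comparisons: Nfyb, a subunit of the factor that binds the CCAAT box, was 1.75 higher in memory than in rested Th1 cells (adjusted p = 0.00226). None of the 6 listed ubiquitin and ubiquitin-activating genes was measured. Of 13 genes of class I antigen processing, the pathway that presents peptides cut by the proteasome, 4 were measured. Tap2, a subunit of the peptide transporter, and B2m, the light chain of class I, fell by 1.00 and 0.67 from rested to memory Th1 cells (adjusted p = 0.0372 and 0.0314). Irf1 rose by 0.92 from rested to memory Th2 cells (adjusted p = 0.027), and B2m was 0.65 higher in Th1 than in Th2 cells over the 3 stages (adjusted p = 0.0129). Calr changed in none of them.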

How the data were processed

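RNA labelled with 33P-dCTP was hybridised to 42 arrays read in 1 channel, per the labels' protocols. The deposited values are linear intensities of 9600 spots per array. Which image reader and background subtraction the authors used is not given in the sources used here. Array medians ran from 5.74 to 12.99, and 26 to 378 spots per array were at 0. The deposited series matrix holds the same intensities times 1 constant per array and served as an alternative. Of 4992 reporters, 4608 were spotted at 2 positions; the platform table named 1 gene for 3626, several for 172, and 1194 are unnamed here. No proteasome reporter had several genes.

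All arrays were quantile-normalised, 1 was added, log2 was taken, and spots and then arrays a and b were averaged. A linear model over all 7 groups was fitted with limma 3.58.1 in R 4.3.3 (lmFit, eBayes), with Benjamini-Hochberg adjustment over 4992 reporters per comparison. It was tested on simulated data. Tables used Python 3.11.15, pandas 2.3.3 and numpy 2.4.6, and plots matplotlib 3.10.9. The 11 comparisons were the steps, memory against naive, the lineage mean and 2 interactions; 7 other pairs were added from the same fit.

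Values in every sample are given for genes called in at least 2 comparisons and for Psmb2, Psma1 and Psma5. Genes, lists and rules were chosen with earlier results of these data known. In the 8 pair comparisons with 3 same-numbered pairs each, deviations from the group means correlated between same-numbered samples at 0.139 to 0.734 in every pair, so the numbers were taken to pair the samples. The value of 0.734 was between naive and memory Th2 samples 3, which share a spot pattern. Outside these comparisons, effector Th1 and memory Th1 samples 1 gave 0.076. Alternatives were the replicate block, a random block for shared spot patterns, median centring, the series matrix, a pseudocount of 8, a filter on the dimmest 25% of reporters (3744 left) and leaving out each sample.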

Additional observations from a re-analysis of the deposited data

How the results depend on the processing

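No call of a proteasome gene changed direction under any alternative run. With the replicate block the numbers called were 8 and 5 in effector Th1 and Th2 against naive (5 and 2 without it), 13 and 5 at rest in Th1 and Th2 (6 and 3), 13 and 4 in memory against rested Th1 and Th2 (8 and 1) and 1 in memory Th1 against naive (0). It changed no other count among the 11 planned comparisons, but it did among the 7 added pairs, as given above. With the pattern block they were 3 and 1 for the effector steps, 1 at rest in Th2, 0 in memory against rested Th2, 9 and 7 in memory against naive Th1 and Th2, 2 for the lineage mean, and 3 and 6 for the rest and memory interactions. The scale of the values also moved some counts: in effector Th2 against naive the series matrix and a pseudocount of 8 both gave 4, at rest in Th1 median centring gave 10, the series matrix 10 and a pseudocount of 8 gave 11, and in memory Th1 against naive the series matrix and the pseudocount of 8 each gave 1; the cause was not tested. Leaving out 1 sample gave 0 to 5 and 1 to 4 in the effector steps of Th1 and Th2, 3 to 10 and 0 to 3 at rest, 5 to 10 and 0 to 1 in memory against rested cells, and 0 in the other 5 comparisons. The number of arrays, the unknown background and the dimness of Psmb7, Psmc3, Psme3, Psme4 and Psmg1 limit these values.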
